A study of Mus musculus with 20 samples.

Results

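The genes described here are 34 mouse genes of cholesterol synthesis and of the sterol regulatory element-binding protein (SREBP) system, chosen by name from textbook knowledge of the pathway and found among the 49997 genes of the count tables. Earlier results of these data were known when they were chosen. They comprise 19 enzymes of the mevalonate and cholesterol pathway, 5 regulators of SREBP, 5 sterol transport genes and 5 genes of fatty acid synthesis. Polyadenylated RNA came from cultured mouse bone marrow cells of 2 sorted populations, hematopoietic stem cells (HSC, sorted as CD201+CD150+ within the cKit+Sca1+Lineage- gate) and hematopoietic progenitor cells (HPC, the CD201-CD150- cells of that gate). The question behind the design is what loss of Runx2, a RUNX family transcription factor, does to these cells. Homozygous Runx2 knockout cells (hom), heterozygous knockout cells (het) and Runx2 wild-type cells (WT) were each sequenced in 3 libraries per population, which gives 6 groups. Both a floxed Runx2 allele and CRISPR editing appear in the description of the series, and no library is assigned to either. Strain, age and Cre driver are not stated, nor is it stated that replicates came from separate animals or cultures. The p-values therefore rest on the variation among libraries, part of which may be technical.

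Cells build cholesterol from acetyl-CoA through mevalonate, isoprenoid diphosphates, squalene and lanosterol. When sterol in the endoplasmic reticulum is low, SCAP escorts the SREBP precursors to the Golgi, where they are cleaved, and the released factors turn on most of these enzymes. When sterol is high, the INSIG proteins hold SCAP back, and oxysterols activate the LXR receptors, which induce the sterol exporters and Srebf1. Sterol efflux through ABCA1 and ABCG1 is known to restrain the proliferation of hematopoietic stem and progenitor cells in mice.

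The sequence upstream of the transcription start was searched in the 26 of 34 genes with a promoter in RefSeq, over 250 bases each. The 3 windows printed below are those that carry a letter match to a sterol response element or, for Abca1, an LXR repeat. They belong to genes of synthesis and its control (Hmgcs1 and Srebf2) and of export (Abca1). The LXR repeat was also found in Srebf1 and Fasn, whose windows are not printed. Of the tested genes, Abca1 had the largest log2 changes between genotypes in HPC, though not in HSC, and between the WT populations. Each is written 5′ to 3′ on the gene's own strand from the GRCm38.p6 build. Capitals mark the sterol response element and CCAAT boxes in Hmgcs1 (chr13:119690101-119690350, plus strand) and in Srebf2 (chr15:82147019-82147268, plus strand), and the E-box and LXR direct repeat in Abca1 (chr4:53159896-53160145, minus strand). For Abca1 RefSeq's promoter table uses a start inside the annotated gene, so 93 bases of its window, with the LXR repeat, lie within the gene's outermost span; the other 2 windows end at the gene's first base.
Hmgcs1: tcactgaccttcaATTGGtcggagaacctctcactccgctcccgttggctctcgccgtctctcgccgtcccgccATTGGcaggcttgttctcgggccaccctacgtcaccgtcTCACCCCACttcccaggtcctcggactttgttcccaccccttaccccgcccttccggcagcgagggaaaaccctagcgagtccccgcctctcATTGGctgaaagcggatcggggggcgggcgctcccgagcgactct
Srebf2: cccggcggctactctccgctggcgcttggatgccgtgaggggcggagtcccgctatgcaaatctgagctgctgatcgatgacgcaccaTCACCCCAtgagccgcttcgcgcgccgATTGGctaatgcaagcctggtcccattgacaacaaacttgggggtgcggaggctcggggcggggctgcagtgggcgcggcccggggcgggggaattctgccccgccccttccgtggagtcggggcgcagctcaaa
Abca1: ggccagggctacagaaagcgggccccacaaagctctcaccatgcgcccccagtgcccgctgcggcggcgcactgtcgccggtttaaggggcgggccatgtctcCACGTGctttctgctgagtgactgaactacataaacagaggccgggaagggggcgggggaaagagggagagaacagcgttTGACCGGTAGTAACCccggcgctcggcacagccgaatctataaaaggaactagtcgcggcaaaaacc

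The sterol element TCACNCCAC was found on either strand in 1 of the 26 promoters, that of Hmgcs1 at position -137 from the annotated start. It was found in 1.22% of the promoters of 27025 genes. Its short form TCACCCCA, which overlaps it in Hmgcs1, also occurred in Srebf2 at -162, so in 2 of 26 promoters (7.69%) against 1.54% of all genes. The LXR repeat GGTNNNNNNNGGTCA occurred in Abca1 at -67, in Srebf1 at -182 and in Fasn at -225 (11.5% of 26 against 0.955% of all genes). The E-box CACGTG occurred in 6 of 26 promoters (23.1% against 6.86%). CCAAT was present in 21 of 26 promoters (80.8% against 37.5%), and the GC box GGGCGG in 21 of 26 (80.8% against 35.4%). The RUNX letters TGTGGT occurred in 4 of 26 promoters (15.4% against 15.9%), those of Acaca, Acly, Lss and Npc1l1. These are matches of letters in a short window and not measured binding.

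The libraries held 18050298 to 27061457 counts in HSC and 16663497 to 22284511 counts in HPC, where 3 counts equal 0.103 to 0.191 CPM (a gene's counts scaled to a common library size by TMM), a limit for counting error alone. Runx2, the targeted gene, had 24.6 to 27.9 CPM in hom HSC, 81.9 to 89.4 CPM in het HSC and 119 to 125 CPM in WT HSC. In HPC it had 22.4 to 24.6 CPM in hom, 99.2 to 108 CPM in het and 121 to 128 CPM in WT libraries, in the order of the labels. Of the sort markers, Procr (CD201) averaged 45.5 CPM in WT HSC and 5.61 CPM in WT HPC, and Kit averaged 446 CPM in WT HSC and 452 CPM in WT HPC. Ly6a (Sca1) is listed at 0 counts in all 18 libraries although the cells were sorted as Sca1+. A listed count of 0 therefore need not mean absent RNA. The Y-linked Ddx3y stood at 112 to 157 CPM in the 9 HSC libraries and at 0 counts in the 9 HPC libraries, and Xist at 0 to 1.15 CPM in HSC and 2752 to 4738 CPM in HPC. Population, donor sex and deposited table therefore cannot be told apart in any comparison of HSC with HPC.

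Of the 34 genes, 33 had enough counts to be tested in both populations. The exception was Npc1l1, the intestinal sterol uptake protein, with 0 to 0.411 CPM in all 18 libraries. Per kilobase of exon, levels spanned a wide range. The stearoyl-CoA desaturase gene Scd2 had the highest level of the list, at 374 ± 23.2 RPKM in WT HSC and 352 ± 36.0 RPKM in WT HPC (CPM per kilobase of exon; SD, n = 3 each). Next came Hmgcs1, which makes HMG-CoA, at 219 ± 18.4 RPKM in WT HSC and 192 ± 46.0 RPKM in WT HPC. Fdps, the farnesyl diphosphate synthase, followed at 215 ± 16.7 RPKM in WT HSC and 194 ± 47.4 RPKM in WT HPC, and the gap between these neighbours is smaller than their spread. Among the regulators Srebf2 (124 ± 4.55 RPKM in WT HSC, 98.3 ± 2.48 RPKM in WT HPC) stood above Srebf1 (29.9 ± 2.09 and 19.7 ± 1.39 RPKM). Insig1 (114 ± 12.6 RPKM in WT HSC, 88.0 ± 9.06 RPKM in WT HPC) likewise stood far above Insig2 (3.73 ± 0.105 and 3.93 ± 0.0458 RPKM). Abca1 was the lowest of the tested genes, at 0.43 ± 0.118 RPKM in WT HSC and 1.66 ± 0.201 RPKM in WT HPC. Exons shared with a neighbouring gene make the levels of Acat2 (30.5% of exon bases) and Mvd (34.4%) uncertain, and to a smaller degree those of Fdft1 (7.49%), Lss (5.55%) and Npc1 (5.4%), since the counting ignored strand.

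**Figure D1:**
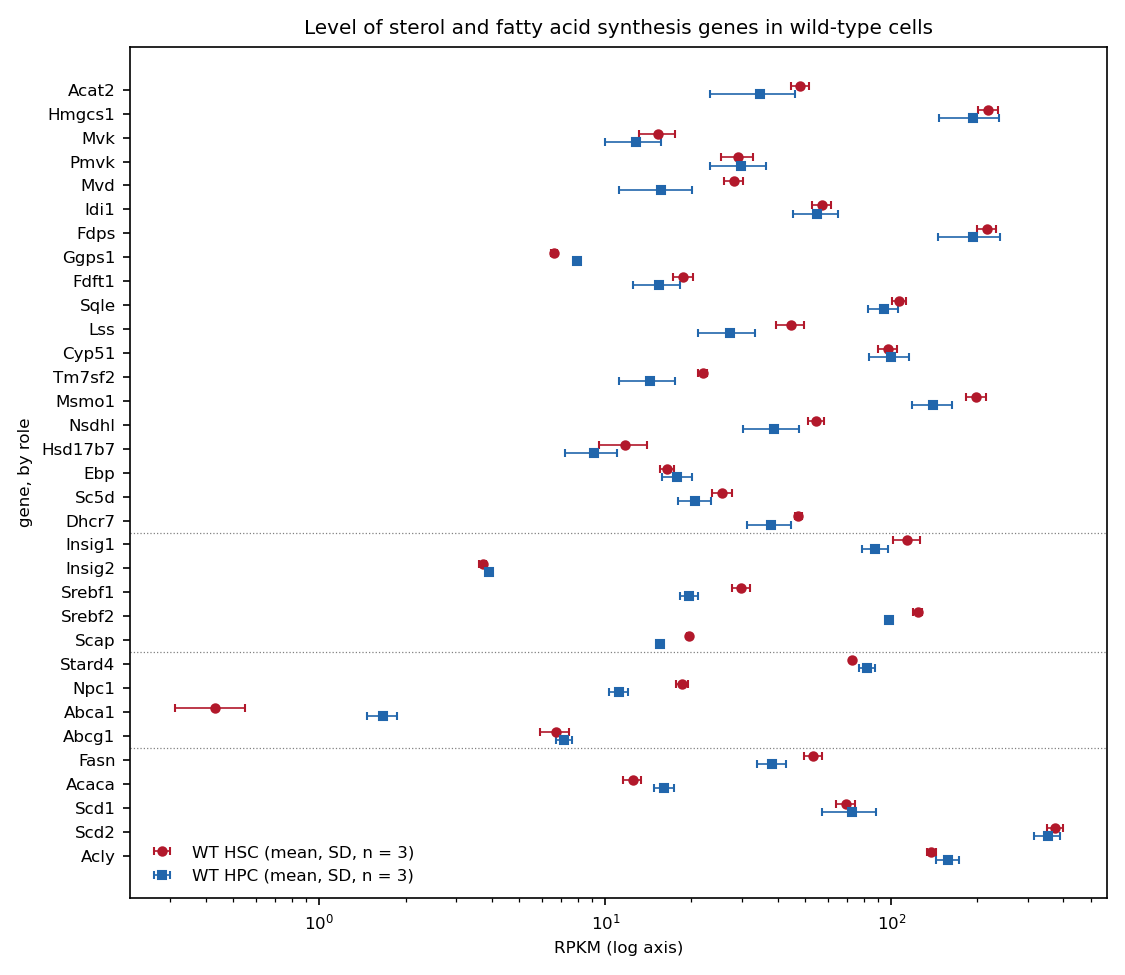
Level of the 33 tested genes in wild-type cells on a log axis in RPKM (points are means and bars SDs of 3 libraries; red WT HSC, blue WT HPC; dotted lines part enzymes, regulators, transport and fatty acid genes). Scd2 stands highest and Abca1 lowest in both populations, and Abca1 is the gene with the widest gap between them.

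WT HSC carried more RNA of several cholesterol enzymes, of Npc1 and of the SREBP machinery than WT HPC, and less Abca1. In the fit of all 18 libraries 15 of the 33 tested genes were higher in HSC and 4 lower (edgeR quasi-likelihood test, Benjamini-Hochberg adjusted p under 0.05). Over all 15431 genes tested 27.7% were called higher and 27.2% lower, so the share called in either direction, 54.9%, is close to that of these genes (19 of 33), while the split by direction is less even. Their median log2 change was 0.26, against 0.03 over all genes, and it was 0.14 to 0.37 with each library left out (0.14 without WT HSC replicate 2). In 12 of the 33 genes all WT HSC libraries lay above all WT HPC libraries and in 6 all lay below, against 64.5% of all genes that did not overlap. Without WT HPC replicate 1, which stands apart below, 22 genes were called (19 higher, 3 lower), with Fdps, Hmgcs1, Hsd17b7 and Sqle added and Stard4 lost, and without WT HPC replicate 2 the count was 15. In bulk RNA a smaller share of one cell type and less RNA per cell cannot be told apart.

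Among the 19 enzymes 9 were higher in WT HSC, 1 was lower and 9 were not called. Mvd, which decarboxylates mevalonate diphosphate, had 56.4, 53.0 and 48.4 CPM in WT HSC and 38.7, 24.5 and 24.2 CPM in WT HPC. The 2 groups did not overlap, with a log2 change of 0.85 ± 0.19 (SE, edgeR adjusted p = 0.00152). Lss, the lanosterol synthase, had 308, 338 and 271 CPM in WT HSC and 236, 157 and 169 CPM in WT HPC (0.71 ± 0.13, edgeR adjusted p = 0.000249). Tm7sf2, a sterol reductase, had 30.9, 33.1 and 33.1 CPM in WT HSC and 26.6, 18.4 and 18.6 CPM in WT HPC (0.61 ± 0.15, edgeR adjusted p = 0.0016). In all 3 genes the highest HPC library was replicate 1. The other enzymes called higher, by 0.28 to 0.50 on the log2 scale, were Acat2, Fdft1, Msmo1, Nsdhl, Sc5d and Dhcr7. Of these, Acat2, Fdft1 and Dhcr7 were not called with a replicate block or without WT HPC replicate 2 or 3, and Sc5d was not called without WT HPC replicate 2. Acat2 and Fdft1 were also not called without WT HSC replicate 1 or 2, or with only the groups compared. Msmo1 and Nsdhl act in succession in removing the methyl groups of the sterol ring. Nsdhl and Ebp are X-linked, and the populations differ in sex. Ggps1, which makes geranylgeranyl diphosphate for protein prenylation, was lower in WT HSC (-0.26 ± 0.07, edgeR adjusted p = 0.00428). Among the enzymes not called were Hmgcs1 (0.18, interval -0.09 to 0.46), Sqle (0.18, -0.01 to 0.37) and Cyp51 (-0.03, -0.25 to 0.19). Hmgcs1 and Sqle were called higher without WT HPC replicate 1.

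Of the 5 regulators, Srebf1, Srebf2, Scap and Insig1 were all higher in WT HSC, and Insig2 was not called. Srebf1, which encodes the SREBP-1 proteins of lipid synthesis, had 199.5, 189 and 173 CPM in WT HSC and 132, 114 and 124 CPM in WT HPC (0.60 ± 0.10, edgeR adjusted p = 4.25e-05). Srebf2, the main factor of cholesterol synthesis, had 682, 723 and 676 CPM in WT HSC and 557, 563 and 537 CPM in WT HPC (0.33 ± 0.07, edgeR adjusted p = 0.000467). Scap had 93.7, 91.5 and 91.0 CPM in WT HSC and 72.0, 73.5 and 73.1 CPM in WT HPC (0.34 ± 0.09, edgeR adjusted p = 0.00331). The libraries of each population lay within a narrow band for these 3 genes, and the bands did not meet. Insig1, itself an SREBP target, had 295, 337 and 271 CPM in WT HSC and 261, 221 and 218 CPM in WT HPC (0.37 ± 0.08, edgeR adjusted p = 0.000464).

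The transport genes moved in different directions. Abca1 (chromosome 4, 53030789 to 53159988, minus strand, mm10), the exporter of cholesterol to apolipoprotein, had 3.84, 5.96 and 3.77 CPM in WT HSC and 15.5, 19.7 and 17.4 CPM in WT HPC. Its level in HSC was 26.0% of that in HPC (-1.94 ± 0.22 log2, edgeR adjusted p = 5.4e-07). Npc1, which moves cholesterol out of lysosomes, had 93.9, 103 and 99.9 CPM in WT HSC and 54.3, 62.4 and 61.7 CPM in WT HPC (0.73 ± 0.10, edgeR adjusted p = 1.94e-06). Stard4, a soluble sterol carrier, was lower in WT HSC (-0.17 ± 0.06, edgeR adjusted p = 0.013), and the exporter Abcg1 was not called (44.2, 36.2 and 36.5 CPM in WT HSC, 39.0, 41.9 and 44.5 CPM in WT HPC). Of the fatty acid genes Fasn was higher (0.48 ± 0.12, edgeR adjusted p = 0.00219) and Acaca lower (-0.37 ± 0.09, edgeR adjusted p = 0.0016), although they encode consecutive steps. Beside these differences, the summed neutrophil granule markers stood at 63.9 to 77.2 CPM in WT HSC and 1631 to 1728 CPM in WT HPC, and the monocyte and macrophage markers at 188 to 205 and 343 to 372 CPM. The summed S-phase genes stood at 1986 to 2230 CPM in WT HSC and 2475 to 3014 CPM in WT HPC, and handling stress genes at 573 to 1562 CPM in WT HSC and 154 to 170 CPM in WT HPC. The part of these in the differences was not tested.

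Within the groups the 19 enzymes tended to be high or low together in a library, and 3 libraries lay farthest from the others of their group. In hom HSC the summed enzyme level was 3948, 3507 and 2931 CPM in replicates 1, 2 and 3, against 3757, 3916 and 3385 CPM in WT HSC. Within hom HSC, replicate 1 was the highest for 18 of 19 enzymes (37.1% of all genes tested) and replicate 3 the lowest for 17 of 19 (38.3% of all genes). The sum was 2952, 2978 and 2683 CPM in hom HPC, 3055, 3271 and 3455 CPM in het HPC and 3804, 2723 and 2794 CPM in WT HPC. Replicate 1 was the highest WT HPC library for 18 of 19 enzymes (34.5% of all genes). In the other groups 1 library was also the lowest for most enzymes: WT HSC replicate 3 and hom HPC replicate 3 for 16 of 19 each, and het HSC replicate 2 and het HPC replicate 1 for 15 of 19 each. Relative to the WT mean of its population, the median enzyme stood at 0.15, -0.03 and -0.29 log2 units in the hom HSC libraries, while in the WT HPC libraries it stood at 0.31, -0.17 and -0.14. The median of the 5 SREBP regulators lay at 0.00, 0.00 and 0.01 log2 units in these WT HPC libraries. In the hom HSC libraries it lay at 0.10, 0.08 and -0.12. The S-phase sum had the same high libraries: 2336, 1839 and 1635 CPM in hom HSC, and 3014, 2565 and 2475 CPM in WT HPC. Its part in the spread of the enzymes was not tested. The main counts and calls below are given with and without the libraries that changed them.

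**Figure D2:**
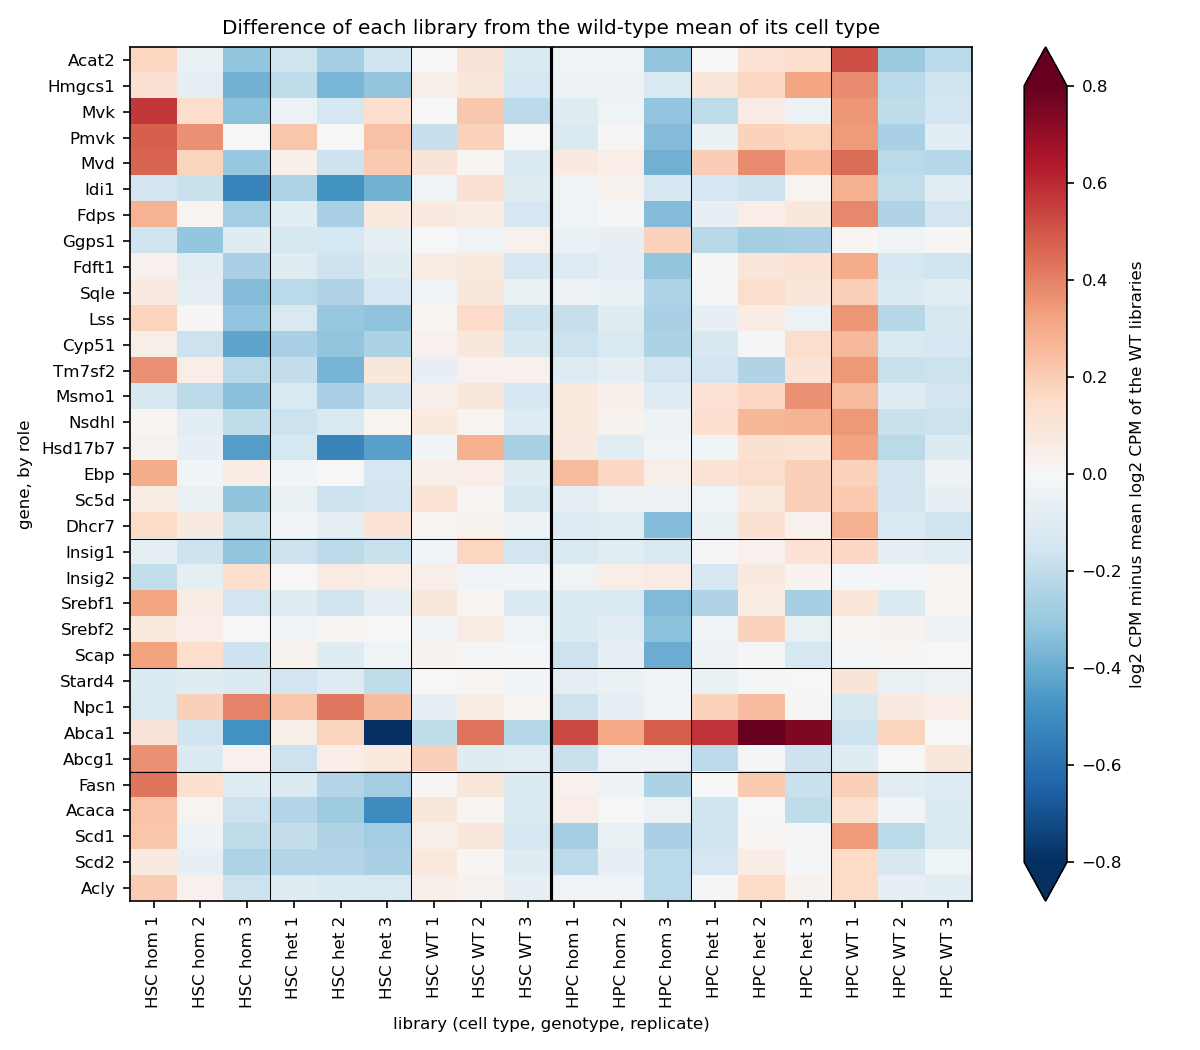
Difference of each library from the WT mean of its population (colour, log2 CPM minus mean log2 CPM of the 3 WT libraries, clipped at 0.8 either way) for the 33 tested genes in rows and the 18 libraries in columns. The columns of hom HSC replicate 1 and WT HPC replicate 1 are red over most enzymes, hom HSC replicate 3 is blue, and the Abca1 row is red in the 6 HPC libraries with a knockout allele.

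In HSC, loss of both Runx2 copies left none of the 33 tested genes past the threshold. The count was 0 by edgeR's quasi-likelihood test with Benjamini-Hochberg adjustment, 3 at an unadjusted p under 0.05 (Idi1, Pmvk and Msmo1; 9.09%, against 18.4% of all genes) and 0 by DESeq2, while 2.01% of all 14959 genes tested in HSC were called, 1.2% higher and 0.802% lower. The log2 changes lay above 0 for 16 genes and below 0 for 17, with a median of -0.01 against 0.00 for all genes. The 95% intervals of all 33 lay between -0.81 (Abca1) and 0.59 (Mvk), and 30 of them included 0. Idi1, the isopentenyl diphosphate isomerase, came nearest to a call, with 147, 145 and 113 CPM in hom HSC and 161, 178 and 153 CPM in WT HSC (-0.25 ± 0.10, edgeR adjusted p = 0.19). Pmvk, which phosphorylates phosphomevalonate, had 78.9, 72.8 and 56.4 CPM in hom HSC and 49.9, 64.4 and 56.4 CPM in WT HSC (0.31 ± 0.12, edgeR adjusted p = 0.195). The enzymes gave 7 values above 0 and 12 below, and the median turned with the library left out. Without hom replicate 1, 26 of the 33 genes lay below 0 (median -0.10) and Npc1 was called higher. Without hom replicate 3, 11 lay below 0 (median 0.09) and Pmvk was called higher. Summed handling stress genes stood at 264 to 651 CPM in hom HSC and 573 to 1562 CPM in WT HSC, and their part was not tested.

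In het HSC 27 of the 33 genes had values below those of WT HSC, but none passed the threshold. The count called was 0 by edgeR and 0 by DESeq2, against 0.0334% of all genes (0.0267% higher, 0.00668% lower), and 11 genes had an unadjusted p under 0.05, or 33.3%, against 13.8% of all genes. Of the 11, Hmgcs1, Idi1, Cyp51, Msmo1, Hsd17b7, Insig1, Stard4, Acaca, Scd1 and Scd2 had values below 0 and Npc1 above. The median was -0.12 for the 33 genes and 0.01 for all genes, and it stayed between -0.16 and -0.10 with each library left out. Hmgcs1 had 697, 622 and 645 CPM in het HSC and 829, 855 and 727 CPM in WT HSC. Acaca, the acetyl-CoA carboxylase that starts fatty acid synthesis, had 130, 126 and 108 CPM in het HSC and 164, 156 and 142 CPM in WT HSC. Both genes had every het library below every WT library, as had 13 of the 33 genes, while 1 had every het library above. Over all genes 23% did not overlap in either direction. Beside this, all 8 tested S-phase genes had values below 0 in het HSC, none of them called, and their sum was 1629 to 1852 CPM in het HSC and 1986 to 2230 CPM in WT HSC. Of 8 genes of G2 and mitosis 7 had values below 0, none called, with sums of 1429 to 1559 CPM in het HSC and 1691 to 1799 CPM in WT HSC. The part of these levels was not tested.

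Between hom and het HSC no member was called by edgeR (0.0134% of all genes were, 0.00668% in each direction), 5 had an unadjusted p under 0.05 (15.2%, against 11.7% of all genes) and 1, Acaca, was called by DESeq2. The 5 were Srebf1 and the fatty acid genes Fasn, Acaca, Scd1 and Scd2. Fasn, the fatty acid synthase, had 747, 604 and 517 CPM in hom HSC and 512, 472 and 459 CPM in het HSC, without overlap. Values lay above 0 for 29 of the 33 genes (median 0.13). Without hom replicate 1, the high library, 21 lay above 0 (median 0.03) and none was called. Without hom replicate 3, the low library, Acaca, Fasn, Lss, Scd1 and Srebf1 were called higher in hom than het HSC.

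In HPC, Abca1 rose with loss of Runx2, and in the reported fit the synthesis genes showed no call against WT in hom cells. Abca1 was the single gene of the 33 called in hom HPC (1 higher, 0 lower), where 9.21% of 13855 genes were called, 4.92% higher and 4.29% lower. It had 25.2, 21.6 and 24.4 CPM in hom HPC and 15.5, 19.7 and 17.4 CPM in WT HPC. All hom libraries lay above all WT libraries, and the mean was 136% of WT (0.44 ± 0.12 log2, interval 0.18 to 0.70, edgeR adjusted p = 0.0324). In het HPC it had 26.0, 37.4 and 29.2 CPM, again above every WT library and 176% of WT (0.82 ± 0.12, interval 0.56 to 1.08, edgeR adjusted p = 0.000193). The 2 comparisons share the WT libraries. Het libraries also lay above hom libraries, but that difference was not called (-0.38 ± 0.12 for hom against het, edgeR adjusted p = 0.0592). The hom call was lost without hom replicate 1, hom replicate 3, WT replicate 1 or WT replicate 3 (log2 change 0.35 to 0.44, edgeR adjusted p = 0.102 to 0.138), while the het call was kept in all 12 alternative fits.

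In HSC, Abca1 was the lowest of the tested genes per kilobase of exon and had no call between genotypes, with 4.74, 3.96 and 3.16 CPM in hom, 4.57, 4.99 and 2.25 CPM in het and 3.84, 5.96 and 3.77 CPM in WT HSC. The change in hom HSC was -0.17 ± 0.30 (interval -0.81 to 0.47). The difference of the hom effect between the populations was -0.64 ± 0.32 (interval -1.31 to 0.03), with an adjusted p of 0.307, and was not called. In HPC, monocyte and macrophage markers also stood higher in hom and het than in WT cells. Their sum was 623 to 709 CPM in hom, 623 to 636 CPM in het and 343 to 372 CPM in WT HPC. In hom HPC 7 of 8 tested markers were called higher, against 4.92% of all genes. Of mast cell, basophil and eosinophil genes 4 of 6 were called higher and 1 lower in hom HPC, and all 4 dendritic cell genes lower. Ly6c2, which marks inflammatory monocytes, averaged 16.2 CPM in hom, 10.3 CPM in het and 1.74 CPM in WT HPC, and Adgre1, which encodes F4/80, averaged 26.2, 28.5 and 10.4 CPM in these groups. C1qa, a complement gene of tissue macrophages, was at 0 counts in all 18 libraries, which, as for Ly6a, need not mean absent RNA. Neutrophil granule genes summed to 2672 to 2860 CPM in hom, 2037 to 2459 CPM in het and 1631 to 1728 CPM in WT HPC. The part of these marker genes in the Abca1 difference was not tested.

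**Figure D3:**
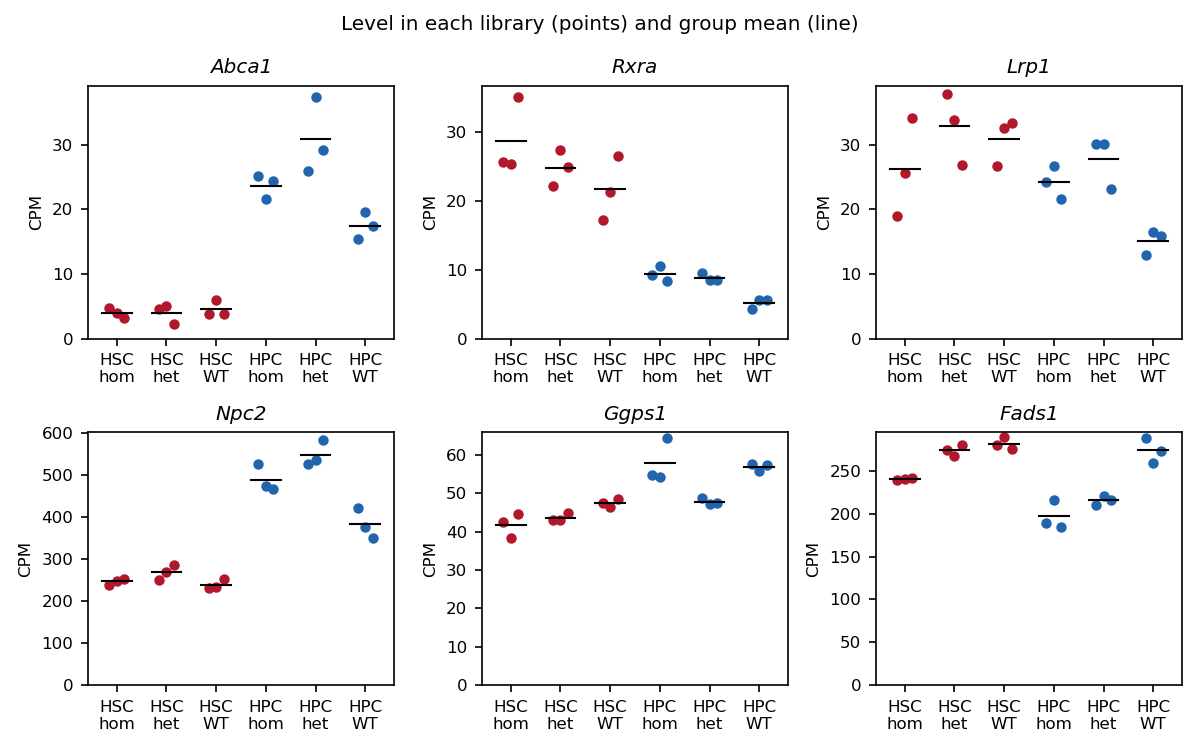
CPM of Abca1, Ggps1 and 4 related genes in each library (points; lines are group means) for hom, het and WT in HSC (red) and HPC (blue), with axes that start at 0. Abca1 stands at 21.6 to 37.4 CPM in hom and het HPC and at 15.5 to 19.7 CPM in WT HPC, and Rxra, Lrp1 and Npc2 are also higher in hom and het HPC than in WT HPC.

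In the reported fit the 19 enzymes gave no call in hom HPC against WT HPC. Their values lay below 0 for 16 and above 0 for 3, with a median of -0.11 against 0.00 for all genes, and none of them had hom and WT libraries that did not overlap. Without a filter on low counts Cyp51, Dhcr7 and Lss were called lower in hom HPC. Of all 33 genes 4 did not overlap, 1 higher and 3 lower, against 26.4% of all genes. The S-phase sum was 2376 to 2740 CPM in hom HPC and 2475 to 3014 CPM in WT HPC, and its part was not tested. This lean rests on WT replicate 1, the high library. With it 27 of all 33 genes lay below 0 (median -0.10), and without it 15 lay below and 18 above (median 0.02). Hmgcs1 shows the pattern, with 672, 673 and 639 CPM in hom HPC and 902, 599 and 621 CPM in WT HPC (-0.09 ± 0.13, edgeR adjusted p = 0.745). Without WT replicate 1 its change was 0.11 (edgeR adjusted p = 0.431), on the other side of 0. Acat2, which makes acetoacetyl-CoA, had 67.8, 68.3 and 55.8 CPM in hom HPC and 99.2, 56.6 and 59.8 CPM in WT HPC, and its interval was the widest downward of the list, reaching -0.64.

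In het HPC 2 genes were called, Abca1 higher and Ggps1 lower, beside 16.1% of all genes called, 9.15% higher and 6.99% lower. Ggps1 had 48.8, 47.1 and 47.5 CPM in het HPC and 57.5, 55.9 and 57.4 CPM in WT HPC. The groups were tight and did not overlap, and het HPC stood at 84.1% of WT (-0.25 ± 0.07, edgeR adjusted p = 0.0238). Of the 33 genes, these 2 were also the ones whose het and WT libraries did not overlap, against 33.9% of all genes. Hom HPC, at 54.8, 54.3 and 64.6 CPM, lay above het HPC, and Ggps1 was the single gene called between them (0.28 ± 0.07, edgeR adjusted p = 0.0204; 9.4% of all genes called, 3.63% higher and 5.77% lower). Leaving out one of 5 libraries (het 2, het 3 or any WT replicate) raised the adjusted p of the het call to between 0.0557 and 0.0707, and the call of hom against het was lost without het replicate 2, het replicate 3 or hom replicate 3. The values of the other enzymes lay on both sides of 0 in het HPC (13 above and 6 below with Ggps1). Without WT replicate 1, Acat2, Hmgcs1, Msmo1, Mvd and Nsdhl were called higher in het HPC beside Abca1, and Ggps1 was no longer called.

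Hom HPC lay below het HPC in 27 of the 33 genes (median -0.15), a comparison that does not use the WT libraries. For 16 of the 33 every hom library lay below every het library and for 1 every hom library lay above, against 27.5% of all genes that did not overlap. Of the 33, 8 (24.2%) had an unadjusted p under 0.05, close to the 23.9% of all genes, and Ggps1 alone was called. Without hom replicate 3 the median was -0.11 and no gene was called, and without het replicate 1 it was -0.18 and Abca1 was called lower beside Ggps1. Without a filter on low counts 10 genes were called, 1 higher (Ggps1) and 9 lower. The 9 were Abca1, Dhcr7, Fdft1, Hmgcs1, Msmo1, Npc1, Nsdhl, Pmvk and Srebf2. Marker genes differed between the same hom and het libraries. In hom HPC against het HPC 6 of 9 neutrophil granule, 3 of 4 erythroid and 3 of 8 G2 and mitosis genes were called higher, and all 4 dendritic cell genes lower. Of mast cell, basophil and eosinophil genes 5 of 6 were called higher. Of 8 tested monocyte and macrophage genes 2 were called higher and 1 lower. Over all genes 3.63% were called higher and 5.77% lower. G2 and mitosis genes summed to 2010 to 2091 CPM in hom HPC and 1659 to 1824 CPM in het HPC, and dendritic genes to 18.3 to 27.0 CPM in hom HPC and 37.0 to 53.2 CPM in het HPC. The part of these in the lower values was not tested. Srebf2 had 512, 521 and 440 CPM in hom HPC and 542, 627 and 530.5 CPM in het HPC (-0.21 ± 0.07, edgeR adjusted p = 0.0928).

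The SREBP regulators were not called between genotypes in either population in the reported fits. In HPC, Scap, Srebf1 and Srebf2 each had all hom libraries below all WT libraries with unadjusted p under 0.05. Over all genes 26.4% did not overlap in either direction and 21.6% had an unadjusted p under 0.05, against 12.1% of the 33 genes. For Srebf1 the separation was narrow, with hom replicate 1 and WT replicate 2 both at 114 CPM. Scap had 64.5, 69.0 and 55.4 CPM in hom, 70.9, 72.3 and 66.0 CPM in het and 72.0, 73.5 and 73.1 CPM in WT HPC (hom against WT -0.21 ± 0.07, edgeR adjusted p = 0.0913). Without hom replicate 2 it was called lower. Without a filter on low counts Scap and Srebf1 were both called lower in hom HPC than in WT HPC. Srebf1 had 114, 113 and 96.5 CPM in hom, 104, 128 and 103 CPM in het and 132, 114 and 124 CPM in WT HPC (-0.19 ± 0.09, edgeR adjusted p = 0.204). Srebf2, with hom and het values given above and 557, 563 and 537 CPM in WT HPC, differed by -0.17 ± 0.07 (edgeR adjusted p = 0.198). In all 3 genes hom replicate 3 was the lowest library.

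In hom HSC the same genes had no call. Srebf1 had 233, 195 and 169 CPM in hom, 175, 167 and 177 CPM in het and 199.5, 189 and 173 CPM in WT HSC. Scap had 115, 101 and 81.9 CPM in hom, 94.0, 86.1 and 89.8 CPM in het and 93.7, 91.5 and 91.0 CPM in WT HSC. In both the hom libraries spanned the range of the WT libraries, and without hom replicate 1 the change was -0.02 for Srebf1 and 0.02 for Scap. Srebf2 had 733, 720 and 694 CPM in hom, 682, 703 and 691 CPM in het and 682, 723 and 676 CPM in WT HSC. The difference of the hom effect, HSC minus HPC, was 0.32 ± 0.13 for Scap (edgeR adjusted p = 0.183, the smallest of the list), 0.22 ± 0.10 for Srebf2 (edgeR adjusted p = 0.264) and 0.45 ± 0.21 for Pmvk (edgeR adjusted p = 0.273). These 3 had an unadjusted p under 0.05 (9.09%, against 17.8% of all genes), and no gene of the 33 was called by edgeR or DESeq2, where 2.79% of all genes were, 1.06% higher and 1.73% lower. Scap was called without hom HSC replicate 3 (0.44, edgeR adjusted p = 0.017) and Pmvk without a filter on low counts. The median difference of the 33 genes was 0.09, and it was 0.00 without hom HSC replicate 1 and -0.05 without WT HPC replicate 1.

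Insig1 and Insig2, the sterol-sensing anchors of SCAP, were not called between genotypes. Insig1 had 284, 268 and 240 CPM in hom, 267, 259 and 265 CPM in het and 295, 337 and 271 CPM in WT HSC. In HPC it had 214, 219 and 213 CPM in hom, 230, 238 and 252 CPM in het and 261, 221 and 218 CPM in WT libraries. WT replicate 2 of HSC and WT replicate 1 of HPC were its highest libraries. Insig2 had 22.8 to 28.6 CPM in hom, 26.2 to 27.4 CPM in het and 25.7 to 27.0 CPM in WT HSC, and 27.0 to 28.9 CPM in hom, 25.1 to 29.1 CPM in het and 27.3 to 27.9 CPM in WT HPC.

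Of the other transport genes, Npc1 had 90.8, 113 and 130 CPM in hom, 115, 133 and 117 CPM in het and 93.9, 103 and 99.9 CPM in WT HSC. All het libraries lay above all WT libraries, without a call (0.31 ± 0.11, edgeR adjusted p = 0.255). In hom HSC its order over the replicates was the reverse of that of the enzymes. In HPC it had 52.6, 56.6 and 58.3 CPM in hom, 67.4, 70.5 and 59.8 CPM in het and 54.3, 62.4 and 61.7 CPM in WT libraries. Abcg1, the partner exporter of Abca1, was not called, with 36.9, 40.5 and 40.3 CPM in hom, 36.1, 41.4 and 37.1 CPM in het and 39.0, 41.9 and 44.5 CPM in WT HPC. Its log2 change in hom HPC was -0.09 with an interval of -0.25 to 0.08. Stard4 had 344 to 401 CPM in HSC and 423 to 479 CPM in HPC, and was not called between genotypes in the reported fits. In HSC every hom and het library lay below every WT library for this gene.

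Fatty acid synthesis genes were not called against WT in any genotype in the reported fits. Scd2, the most abundant, had 2142, 1948 and 1716 CPM in hom, 1730, 1728 and 1703 CPM in het and 2158, 2055 and 1906 CPM in WT HSC. In HPC it had 1656, 1828 and 1645 CPM in hom, 1741, 1991 and 1893 CPM in het and 2135, 1751 and 1868 CPM in WT libraries. In het HSC all 5 genes of the group had every library below every WT library, with log2 values from -0.33 (Acaca) to -0.10 (Acly, the ATP citrate lyase) and none called. Over all genes 23% did not overlap in either direction. Acaca was called in het HSC with only the groups compared or without a filter on low counts. Without that filter Scd1 was called lower in hom HPC. Hom HSC overlapped WT HSC in all 5.

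**Figure D4:**
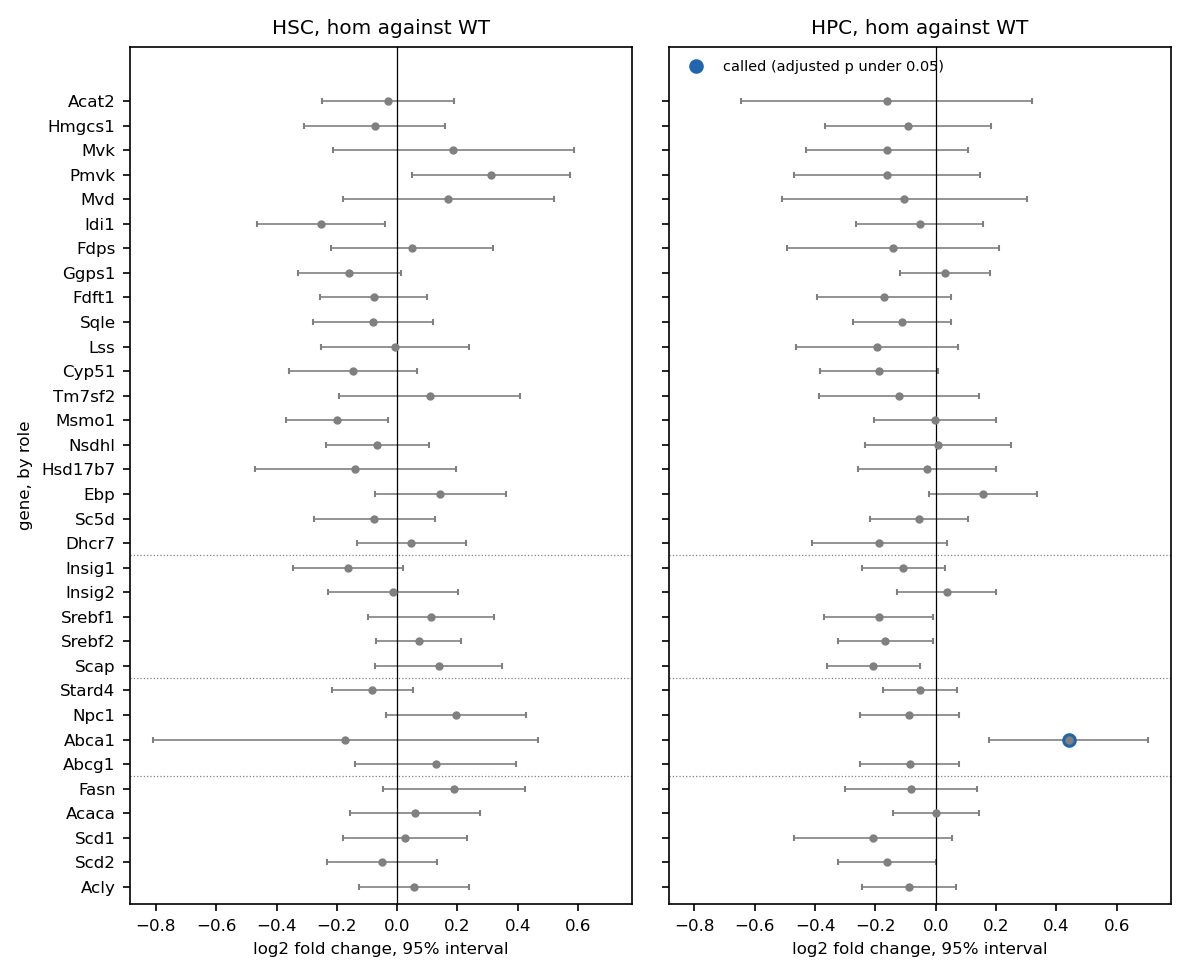
Log2 fold change of hom against WT (points) with 95% intervals (bars) for the 33 tested genes in HSC (left) and HPC (right), ordered by role. Abca1 in HPC, in blue, is the single called gene, at 0.44, and 30 of the 33 HSC intervals and 29 of the 33 HPC intervals cross 0.

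Of genes around the pathway, from 4 lists of related genes, 10 of 56 tested were called in hom HPC (17.9%, against 9.21% of all genes) and 16 of 56 in het HPC (28.6%, against 16.1%). The lists were chosen with earlier results of these data known, so these shares do not show enrichment. In HSC none of 59 was called in hom (2.01% of all genes were) or in het cells (0.0334%). By the test of the difference itself, the hom effect differed between HSC and HPC for 2 of 59, Soat1 and Elovl5 (3.39%, against 2.79% of all genes). In hom HPC, where 4.92% of all genes were called higher and 4.29% lower, the sterol sensing and LXR list had 1 of 12 tested genes higher, the list of transport, esters and oxysterols had 3 higher and 2 lower of 15, and that of fatty acid synthesis and desaturation had 1 higher and 3 lower of 15. None of 14 genes of the mevalonate branches (prenylation, ubiquinone and dolichol) was called. Rxra, the obligate partner of the LXR receptors, had 9.30, 10.6 and 8.40 CPM in hom, 9.51, 8.49 and 8.56 CPM in het and 4.22, 5.63 and 5.58 CPM in WT HPC (hom against WT 0.87 ± 0.14, edgeR adjusted p = 0.000452). Lrp1, an endocytic lipoprotein receptor, had 24.2, 26.7 and 21.7 CPM in hom, 30.1, 30.2 and 23.2 CPM in het and 12.9, 16.4 and 15.9 CPM in WT HPC (0.68 ± 0.12, edgeR adjusted p = 0.00105). For both, every hom and het library lay above every WT library, as with Abca1. Between the populations they went the other way from Abca1, and both were called higher in WT HSC than in WT HPC. Over 12 alternative fits that log2 change was 1.90 to 2.21 for Rxra and 0.93 to 1.13 for Lrp1. Npc2, described next, was lower in WT HSC (-0.81 to -0.60), as was Abca1.

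The lysosomal sterol carrier Npc2 rose as well, with 525, 473 and 465 CPM in hom, 524, 535 and 583 CPM in het and 422, 375 and 348 CPM in WT HPC (0.36 ± 0.07, edgeR adjusted p = 0.00303). Soat1, which esterifies cholesterol for storage, had 76.0, 79.1 and 79.4 CPM in hom HPC and 64.1, 59.4 and 64.8 CPM in WT HPC (0.32 ± 0.06, edgeR adjusted p = 0.00269). Soat2, the esterifying enzyme of intestine and liver, fell, with 6.73, 10.8 and 11.3 CPM in hom, 6.51, 4.66 and 5.57 CPM in het and 14.01, 17.8 and 24.8 CPM in WT HPC (-0.97 ± 0.23, edgeR adjusted p = 0.0232). It was named after its values were seen. The lipoprotein receptor gene Lrp8 fell in hom HPC (-0.28 ± 0.07, edgeR adjusted p = 0.0184), a call lost in 4 of 12 alternative fits. In het HPC the same 6 genes were called in the same directions as in hom HPC, with the WT libraries shared between the 2 comparisons.

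Among fatty acid genes, the desaturase Fads1 fell, with 190, 216 and 185 CPM in hom, 210, 221 and 216 CPM in het and 289, 260 and 274 CPM in WT HPC (hom against WT -0.47 ± 0.06, edgeR adjusted p = 6.51e-05). Fads2, the desaturase that acts before it, fell by 0.25 ± 0.07 in hom HPC (edgeR adjusted p = 0.0408) and was not called in het HPC (edgeR adjusted p = 0.0817). The hom call of Fads2 was lost in 4 of 12 alternative fits, among them that without WT replicate 1 (-0.17, edgeR adjusted p = 0.192). Me1, the cytosolic malic enzyme that supplies NADPH, had 5.08, 6.36 and 6.54 CPM in hom, 6.06, 5.48 and 6.36 CPM in het and 11.2, 6.82 and 9.33 CPM in WT HPC (-0.60 ± 0.17, edgeR adjusted p = 0.0259). Its call was lost in 3 of 12 fits, among them that without WT replicate 1 (-0.43, edgeR adjusted p = 0.151). The elongase gene Elovl5 rose by 0.18 ± 0.06 in hom HPC (edgeR adjusted p = 0.0451), but 9 of 12 alternative fits did not call it. Fasn, Scd1, Scd2, Acaca and Acly, the fatty acid genes of the main list, showed no call in hom HPC in the reported fit.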

How the data were processed

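RNA-seq of 18 libraries was analysed; the 2 CUT&Tag samples are not analysed here. The deposited values are raw gene counts: per the file headers, the authors counted read pairs without strand over exons, summed by gene, with featureCounts 2.0.6 and an mm10 RefSeq annotation. The submitters' processing notes also name FastQC, Trim Galore 0.6.10, STAR 2.7.11a and the mm39 build; gene positions in the count tables, printed here, are those of mm10. HSC and HPC counts came as separate tables.

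CPM and RPKM were computed here from the counts with TMM library sizes of all 18 libraries. Genes were filtered with filterByExpr and tested with edgeR 4.0.16 (R 4.3.3), by the robust quasi-likelihood F test with Benjamini-Hochberg adjustment over all genes tested and a threshold of 0.05. Every adjusted p in the text is of this test. Genotypes were compared in fits of the 9 libraries of a population; WT HSC against WT HPC, and the difference of the hom effect between populations, in a fit of all 18. Standard errors and 95% intervals are on the log2 scale. As alternatives, DESeq2 1.42.0 replaced edgeR, RLE scaling replaced TMM, the filter was dropped or set to at least 1 CPM in 3 libraries, each replicate was left out, the replicate number was a block, or only the groups compared were fitted. On counts simulated for hom against WT, the share of changed genes recovered was 18% in HSC (14707 genes) and 56% in HPC (13706 genes) at a log2 change of 0.3, and 72% in HSC and 88% in HPC at 0.6.

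The genes and lists were chosen with earlier results of these data known. Values in every library were given for the SREBP regulators, Abca1, Abcg1 and Npc1, for called genes of the list (up to 12 for hom against WT, 6 for WT HSC against WT HPC by size, 4 for the comparisons with het) and for up to 4 called genes of each related list by smallest p. Others named with values (Idi1, Pmvk, Hmgcs1, Acaca, Acat2, Fasn, Scd2 and Soat2) were chosen after their values were seen. Promoter sequences are from RefSeq, GRCm38.p6. No libraries of the same group were duplicates of each other, and pairs from different groups were not checked for this.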

Additional observations from a re-analysis of the deposited data

Results flagged for a closer look

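For 2 genes of the related lists the change in hom cells differed between HSC and HPC by a test of the difference itself (edgeR quasi-likelihood test, Benjamini-Hochberg adjusted over all genes), a share of 3.39% of the 59 tested, close to the 2.79% of all genes. Soat1, which esterifies cholesterol, had a hom effect that was lower in HSC than in HPC by -0.4393 on the log2 scale (adjusted p = 0.0202). It had 53.35, 53.8 and 55.05 CPM in hom HSC and 60.4, 60.1 and 56.1 CPM in WT HSC, against 76.0, 79.1 and 79.4 CPM in hom HPC and 64.1, 59.4 and 64.8 CPM in WT HPC. In 5 of 18 alternative fits the difference was not called. Elovl5, a fatty acid elongase, had a difference of -0.3516 (adjusted p = 0.0257), with 113, 121 and 127 CPM in hom HSC and 136, 135 and 134 CPM in WT HSC. In HPC it had 149, 151 and 159 CPM in hom and 140.3, 135 and 130.0 CPM in WT libraries. It was not called in 6 of 18 alternative fits. Population, donor sex and deposited table cannot be told apart in either difference.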

How the results depend on the processing

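Of the 33 tested genes, the number called stayed within 1.5 times the reported count in 76 alternative results and moved further in 26. An equal count can hide other genes. Without het replicate 3, hom against het HPC called Npc1 lower and not Ggps1. Without het replicate 2, het HPC against WT called Srebf1 lower beside Abca1, and not Ggps1. For the 37 called values of named genes, no alternative reversed the direction, 51 alternative values lost the call and 405 kept it. Values that were not called could turn, as Hmgcs1 did in hom HPC without WT replicate 1 (0.11, against -0.09). Without a filter on low counts 1 gene was called in hom HSC against WT, 5 in het HSC against WT, 2 in hom against het HSC, 7 in hom HPC against WT, 10 in hom against het HPC and 1 for the difference of the hom effect. The 7 in hom HPC against WT were Abca1, higher, and Cyp51, Dhcr7, Lss, Scap, Scd1 and Srebf1, lower. Of the 10 in hom against het HPC, Ggps1 was higher and 9 were lower. DESeq2 called 1 gene between hom and het HSC. With only the groups compared, 3 genes were called in het HSC against WT (Acaca, Idi1 and Npc1) and 3 in hom against het HPC. With each library left out in turn, 0 to 1 genes were called in hom HSC against WT, 0 in het HSC against WT, 0 to 5 in hom against het HSC, 0 to 2 in hom HPC against WT, 1 to 6 in het HPC against WT, 0 to 2 in hom against het HPC, 15 to 22 in WT HSC against WT HPC and 0 to 1 for the difference of the hom effect. The causes were not tested.

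Replicate numbers did not pair the libraries: the median correlation of deviations between same-numbered libraries was 0.03 in HSC and 0.05 in HPC, and a library correlated best with its own number in 7 of 18 and 8 of 18 cases. With a replicate block 3 genes were called between hom and het HPC (Abca1, Ggps1 and Srebf2) and 15 between WT HSC and WT HPC. Over all genes, hom HSC against WT gave 300 calls in the reported fit, 748 with DESeq2, 898 without a filter, 155 with only the groups compared and 48 to 638 with each library left out. The corresponding counts in het HSC were 5, 192, 399, 299 and 2 to 7. HSC libraries varied more than HPC libraries (common dispersion 0.0128 and 0.00483), which limits what could be called there.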
